A study of Mus musculus with 99 samples.

Results

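The cells described here are outer hair cells of the mouse cochlea that were made to express the transcription factor Tbx2 and were sequenced one by one, ranked by how much Tbx2 RNA each held. Of 99 cells in the whole series, 67 are these converted inner hair cells (cIHCs). The 22 with the highest Tbx2 level (the high set) were set against the 22 with the lowest (the low set), 44 cells in all, and every other gene was also rank-correlated with Tbx2 over all 67 cells. The 23 cells between the sets are called the middle set. The cIHCs came from C57BL/6 mice of genotype Slc26a5-CreER/+; Rosa26Tbx2/+ at postnatal day 42, so all 3 sets share genotype and age. The remaining 32 cells are wild-type outer hair cells (OHCs) from Slc26a5-CreER/+; Ai9/+ mice at postnatal day 30, given for orientation only, because age and genotype differ together between the groups. In both groups the tamoxifen-inducible Cre is driven from Slc26a5, the gene of the OHC motor protein prestin, and red fluorescent (tdTomato+) cells were picked by hand. OHCs of an earlier study were not analysed here.

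OHCs amplify sound by changing length, and IHCs, the true sensory receptors, drive auditory nerve fibres through ribbon synapses. Tbx2 is a T-box DNA-binding protein, known mostly as a repressor, that is present in IHCs and absent from mature OHCs, and it is needed for the IHC identity. Levels are CPM, a gene's count divided by the cell's total count and multiplied by 1000000, with no correction for gene length, so they are compared between cells and never between genes.

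Tbx2 itself chose the cells and is given as a description. Its level ran from 113 to 430.2 CPM in the low set (median 256), and from 765 to 2643 CPM in the high set (median 1112). The cells just outside the sets stood at 435 CPM, next to the low set, and at 737 CPM, next to the high set. The highest OHC stood at 0.1225 CPM. Reads of the Rosa26 copy and of the resident Tbx2 gene fall on 1 symbol and cannot be told apart. The labels name no animal for any cell, so the cIHCs count as 1 sample. What follows therefore describes these cells, with no p-value or standard error, and differences between cells cannot be told apart from differences between animals.

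The 3 sets were not alike as libraries. The share of counts from mitochondrially encoded genes had a median of 2.54% in the high set (0.287% to 7.37%), 3.30% in the middle set (2.41% to 9.61%) and 5.30% in the low set (2.76% to 8.85%). Its Spearman rank correlation (rho) with Tbx2 was -0.61. Median total counts were 8555383, 7735087 and 7358658 in the high, middle and low sets (rho 0.32), and 8693, 8694 and 8118 genes had reads (rho 0.30). Cells with Xist reads (at least 10 CPM) made up 18 of 22, 20 of 23 and 17 of 22 cells, and all the others had Y-linked reads. The 12 cells with Y-linked reads are those numbered 1 to 12 in the titles, so the sex of the animal and the order of the titles cannot be told apart. Among the cells with Xist reads, low-set cells were more frequent at the lower title numbers and high-set cells at the higher ones. The mitochondrial share also tended to be larger at the lower numbers. The part of title order in the results was not tested. Because mitochondrial share and depth moved with Tbx2, correlations are also given with the mitochondrial share, or with total counts and genes with reads, held constant (partial rho) where a named gene's rho then no longer reaches 0.3 in size.

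**Figure D1:**
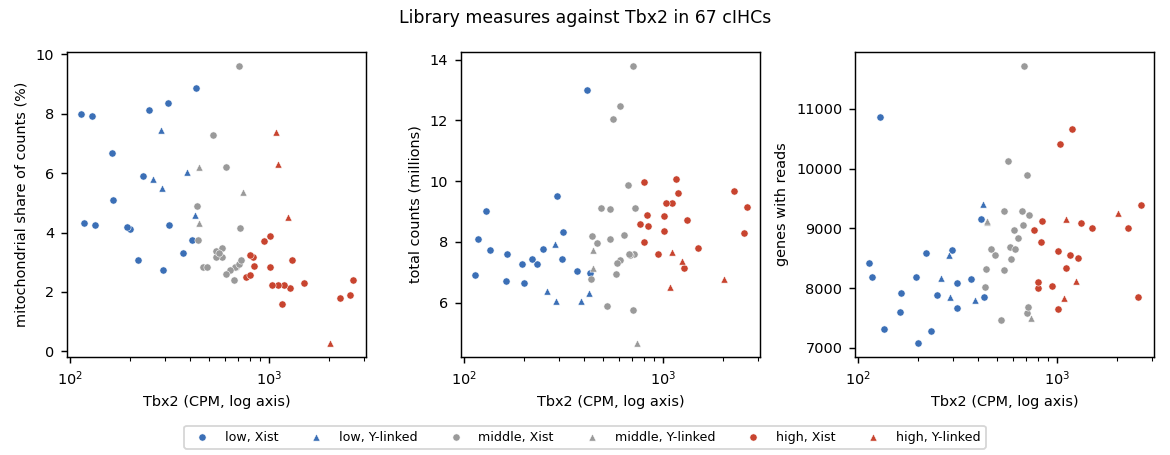
Mitochondrial share of counts (%), total counts (in units of 1000000) and number of genes with reads in each of 67 cIHCs (points, triangles for cells with Y-linked reads) against Tbx2 (CPM, log axis), coloured by set. The mitochondrial share was lower toward high Tbx2 (rho -0.61), while total counts (rho 0.32) and genes with reads (rho 0.30) were higher.

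Of 55291 gene symbols, 9076 reached a mean of 10 CPM over the 67 cells and were compared. Pooled CPM (summed counts over summed totals) was at least 2-fold higher in the high set, a log2 ratio of 1 or more, for 1025 genes (11.3%), and at least 2-fold lower for 776 (8.55%). The rank correlation with Tbx2 was 0.3 or above for 557 genes (6.14%) and -0.3 or below for 370 (4.08%). Both criteria were met by 365 genes in the higher and 259 in the lower direction. The strongest negative correlations were larger than the strongest positive ones: 61 genes lay at -0.5 or below and 23 at 0.5 or above. For 0 of the 9076 genes were the high and low sets free of overlap, so each difference below is a shift between broad, overlapping sets of cells. The points of each correlation share 67 libraries and their depths.

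**Figure D2:**
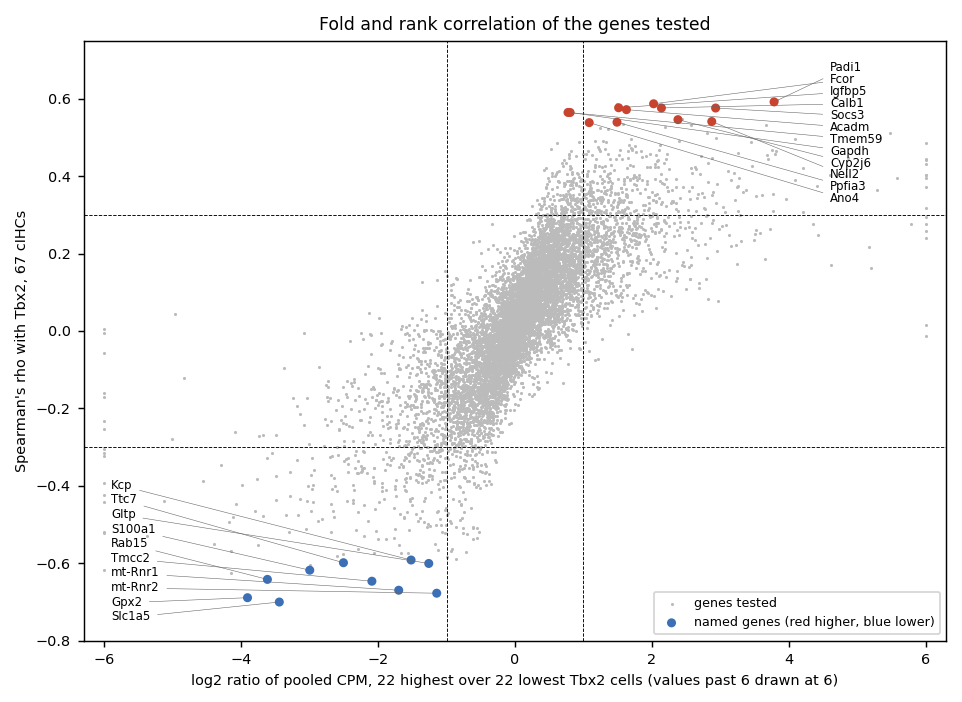
Each of 9076 genes (grey points) by its log2 ratio of pooled CPM, 22 highest over 22 lowest Tbx2 cells, and its Spearman's rho with Tbx2 over 67 cIHCs; 22 of the 24 named genes are coloured and dashed lines mark a log2 ratio of 1 and a rho of 0.3 in either direction. Named lower genes reach a rho of -0.70 (Slc1a5), named higher genes 0.59 (Padi1).

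The genes most negatively ranked with Tbx2 included an amino acid transporter, a peroxide-reducing enzyme, several genes abundant in OHCs and the mitochondrial ribosomal RNAs. Slc1a5, a transporter of glutamine and other neutral amino acids (chr7:16781340-16798274, plus strand, GRCm38), had 0 CPM in its lowest high-set cell, a median of 2.31 and a highest value of 340 CPM. In the low set its level ran from 13.4 through a median of 422 to 983 CPM. The log2 ratio was -3.44 and rho -0.70, with reads in all 22 low cells and in 15 high cells. Its level in pooled OHCs was 127 CPM, below that of the low set.

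Gpx2, a glutathione peroxidase that detoxifies hydroperoxides (chr12:76792333-76795554, minus strand), was the second in rank among the named lower genes, with rho -0.69. Its median was 7.60 CPM in the high set (0 to 4186), 1885 CPM in the middle set and 3113 CPM in the low set (26.2 to 6529), and 4682 CPM in OHCs. The high set held mostly cells with little Gpx2, with 10 of 22 cells at 10 CPM or more against 22 of 22 low cells, but a single high cell supplied 68.4% of that set's Gpx2 counts. The log2 ratio was -3.91, and -5.44 without the highest cell of each set. Reads of the near copy Gpx2-ps1 could have been shared with it in counting.

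S100a1, an EF-hand calcium-binding protein, had a median of 30.6 CPM in the high set (0 to 586), 511 CPM in the middle set, 726 CPM in the low set (0.284 to 4449) and 4609 CPM in OHCs, with a log2 ratio of -2.997 and rho -0.62. Rab15, a small GTPase of endocytic recycling, had a median of 0 CPM in the high set (highest 215) and 167 CPM in the low set (0 to 516), against 253 CPM in OHCs. Its log2 ratio was -3.62, and -4.35 without the highest cells. Both genes overlapped between the sets, and in each the low set's median lay between those of the high set and the OHCs.

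The other lower genes described here spanned log2 ratios from -1.14 to -2.50. Gltp, a glycolipid transfer protein, was read in all 67 cells, with medians of 368 CPM in the high set (63.5 to 638) and 803 CPM in the low set (71.1 to 1554). Ttc7, part of the complex that places a phosphatidylinositol kinase at the plasma membrane, had medians of 18.5 and 172 CPM (log2 ratio -2.50). Kcp, a secreted modulator of BMP signalling, had medians of 176 and 655 CPM (log2 ratio -1.52). Tmcc2 (log2 ratio -2.09, rho -0.65) stood beside the ribosomal RNAs mt-Rnr1 (-1.70, rho -0.67) and mt-Rnr2 (-1.14, rho -0.68). By pooled CPM, OHCs stood above the low set for 9 of the 12 named lower genes and below it for 3. These 3 were Slc1a5, Kcp (306 against 693 CPM) and Tmcc2 (230 against 299 CPM). Tmcc2, Ttc7 and Kcp overlap exons of genes on the opposite strand (GENCODE M21 annotation), and because the strand setting of the counting is not given in the sources used here, their values are uncertain. Of 128 genes checked, 46 overlapped exons of another gene on either strand. Among them were also Cib2, Cacna1d, Kcnma1, Nr2f2, Nefl and Nefm, on the opposite strand, and Ctbp2, on the same strand.

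Of the genes positively ranked with Tbx2, Calb1, the calcium buffer calbindin (chr4:15881264-15908064, plus strand), stood at 738 CPM in its lowest high cell, 13047 CPM at the median and 26542 CPM in the highest. In the low set it ran from 0 through 987 to 22875 CPM, in the middle set its median was 6429 CPM, and in OHCs 157 CPM. The log2 ratio was 2.14 and rho 0.58. All 22 high cells were at 10 CPM or more, against 16 of 22 low cells, and the low cells spread from none up to the range of the high set.

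Igfbp5, a secreted binding protein of insulin-like growth factors (chr1:72857932-72874884, minus strand), was read in all 67 cells, with a median of 2367 CPM in the high set (292 to 6147), 1418 CPM in the middle set and 475 CPM in the low set (73.3 to 2235). The log2 ratio was 1.51 and rho 0.58, and pooled OHCs stood at 61.9 CPM. Socs3, a feedback inhibitor of cytokine signalling through JAK and STAT (chr11:117966079-117970047, minus strand), had a median of 104 CPM in the high set (0 to 471) and 0 CPM in the low set (highest 96.5). Its log2 ratio was 2.93 and rho 0.58, with 20 of 22 high and 8 of 22 low cells at 10 CPM or more, and 0.017 CPM in pooled OHCs. High and low cells overlapped for both genes, more so for Igfbp5 at the upper end.

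Padi1, a peptidylarginine deiminase, had the highest rho of the named genes (0.59, with a log2 ratio of 3.78). Its levels were low, with a median of 21.1 CPM in the high set (0 to 64.4) and 0 CPM in the low set (highest 16.5). Fcor, a corepressor of Foxo1, had medians of 56.3 and 0.038 CPM (log2 ratio 2.02). Its pooled level in OHCs was 58.4 CPM, against 62.9 CPM in the high set and 15.5 CPM in the low set. Acadm, the medium-chain acyl-CoA dehydrogenase of fatty acid oxidation, had medians of 332 and 104 CPM (log2 ratio 1.63). These levels are low to moderate, and in each gene some low cells reached the levels of high cells.

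Cyp2j6, a cytochrome P450, had a log2 ratio of 2.38, and Nell2, a secreted glycoprotein of neurons, 2.87. Ppfia3, the presynaptic scaffold liprin-alpha 3, had a log2 ratio of 1.49, and Ano4, an anoctamin, 1.08. The ratios of Gapdh, a glycolytic enzyme (0.81), and Tmem59 (0.77) were below 2-fold, although their rho of 0.56 was among the highest. Padi1, Ppfia3, Tmem59 and Gapdh overlap exons on the other strand and are uncertain for the reason given above.

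The 24 named genes were picked for their rho over all 67 cells. A middle-set median between those of the other sets (24 of 24) therefore follows largely from the choice. So does the same sign of rho in the 55 cells with Xist reads. The sign was also the same in the 12 cells with Y-linked reads, which are part of the 67. By pooled CPM, Padi1 stood highest in the middle set (27.2 CPM, against 23.5 CPM in the high set). With total counts and genes with reads held constant, all 24 still passed 0.3. With the mitochondrial share held constant, the 12 lower genes ranged from -0.56 to -0.35 and all passed, whereas 9 of the 12 higher genes did. The exceptions were Socs3 (0.27), Nell2 (0.26) and Ppfia3 (0.23). Of the lower genes, mt-Rnr1 (-0.35) and mt-Rnr2 (-0.39) are themselves part of that share.

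**Figure D3:**
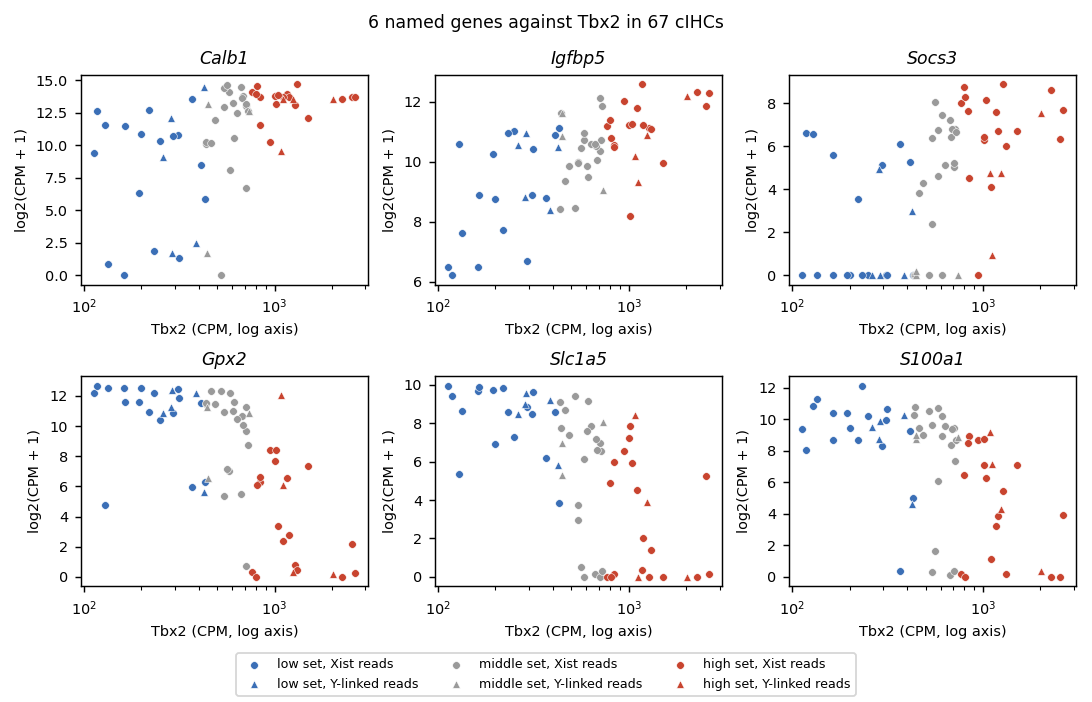
log2(CPM + 1) of Calb1, Igfbp5, Socs3, Gpx2, Slc1a5 and S100a1 in each of 67 cIHCs (points, triangles for cells with Y-linked reads) against Tbx2 (CPM, log axis), coloured by set. The upper genes are higher and the lower genes are lower toward high Tbx2. Socs3 and S100a1 have cells near 0 in both sets, while Gpx2 reaches 10 CPM in 10 of 22 high and 22 of 22 low cells.

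The same cells tended to be low or high for several of these genes at once. Over 67 cells, rho was -0.76 between Calb1 and Gpx2, -0.80 between Calb1 and S100a1, 0.82 between Gpx2 and Slc1a5, and 0.36 between Calb1 and Igfbp5. The first 3 of these are larger than any gene's correlation with Tbx2, and all rest on the same libraries. Individual cells departed from the order, chosen here after their values were seen. The cIHC numbered 3, in the high set with 1083 CPM of Tbx2, held 4186 CPM of Gpx2 and 738 CPM of Calb1, and 7.37% of its counts were mitochondrial, the highest share in that set. The cIHC numbered 5, in the low set with 425 CPM of Tbx2, held 48.8 CPM of Gpx2 and 22875 CPM of Calb1.

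Many genes lower with high Tbx2 were also more abundant in OHCs. To keep this apart from the cells that set the fold, OHCs were compared with the 23 middle cells. Over all 9076 genes, pooled OHC levels were at least 2-fold above the middle set for 9.34% and at least 2-fold below for 28.6%. Of the 259 genes lower by both criteria, 118 (45.6%) were above and 36 (13.9%) below. Of the 365 genes higher by both criteria, 16 (4.38%) were above and 221 (60.5%) below. Of the 776 genes lower by fold, 29.9% were above and 24.7% below in OHCs. Of the 1025 higher by fold, 7.02% were above and 52.3% below. The rho calls use the middle cells too, so only the shares by fold come from cells that took no part in the call, and age differs between the groups.

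T-box factors bind a motif whose core is GGTGTGA, with AGGTGTGA as the fuller half-site. Promoter windows, 250 bases before to 50 after the annotated start from RefSeq (GRCm38.p6), were matched by symbol for 7215 of the 9076 genes and searched on both strands; the longer motif contains the core. The core was present for 4.01% of these genes, for 4.14% of those with rho of 0.3 or above and for 4.14% of those with rho of -0.3 or below. The longer motif was present for 0.901%, 1.61% (7 of 435 genes) and 1.5% (4 of 266 genes). Of the named genes with a window, 0 of 10 higher and 0 of 7 lower genes held the core. The 250 bases before the start of Gpx2 (chr12:76795555-76795804, minus strand) and of Igfbp5 (chr1:72874866-72875115, minus strand) are shown, 5′ to 3′, as a gene ranked low and a gene ranked high with Tbx2 and none of these letters in the window. Cdkn1a, described below, holds 1 core motif in 1 of its windows, starting at base 15 of the transcript. The base before the core is an A, so this window also holds the longer motif. The 30 bases around the core (chr17:29093772-29093801, plus strand) are shown with the core in capitals.
Gpx2: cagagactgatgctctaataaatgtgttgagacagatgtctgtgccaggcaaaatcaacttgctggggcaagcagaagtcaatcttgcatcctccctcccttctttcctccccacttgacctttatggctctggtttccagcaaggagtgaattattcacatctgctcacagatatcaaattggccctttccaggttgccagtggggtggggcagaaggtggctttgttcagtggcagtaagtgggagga
Igfbp5: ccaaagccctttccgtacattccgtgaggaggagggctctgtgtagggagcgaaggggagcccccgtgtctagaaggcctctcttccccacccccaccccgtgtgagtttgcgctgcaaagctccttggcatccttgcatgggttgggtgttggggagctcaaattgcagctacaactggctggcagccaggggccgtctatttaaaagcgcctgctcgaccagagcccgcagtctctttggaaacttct
Cdkn1a: agcagccgagaGGTGTGAgccgccgcggtg
A match is a description of letters in a window and says nothing of binding.

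Genes that earlier work reports as repressed by Tbx2 in other tissues were mostly too low to compare, with 2 of 8 tested, of which 1 is described. Cdkn1a, the cell cycle inhibitor p21 (chr17:29090976-29100727, plus strand), had a median of 0 CPM in the high set (highest 29.1), 0 CPM in the middle set and 162 CPM in the low set (0 to 985). The 22 low cells held 34206 counts and the 22 high cells 304, of which a single cell supplied 74.7%, for a log2 ratio of -6.97 and rho -0.52. The level was at 10 CPM or more in 15 low, 9 middle and 1 high cell, so the sets overlapped only through cells without reads and a few low values. Pooled OHCs stood at 16.3 CPM, with a median of 0 CPM. Without the highest cell of each set the ratio was -8.60, and rho was -0.49 with the mitochondrial share held constant. Cdkn1a overlaps AC167363.2 on the other strand.

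The genes that mark IHCs went in both directions with Tbx2 level, mostly within 2-fold. Of 10 IHC genes tested, 1 was 2-fold higher (11.3% of all genes) and 0 were 2-fold lower (8.55%). A rho of 0.3 or above was found for 2 (6.14% of all genes) and of -0.3 or below for 2 (4.08%), and the median log2 ratio was -0.07 against 0.09 over all genes tested. Slc17a8, the vesicular glutamate transporter of the IHC synapse, had medians of 1114 CPM in the high set (536 to 1867) and 1158 CPM in the low set (419 to 2979), and rho -0.04. In OHCs its median was 0.14 CPM and its highest value 594 CPM, above the lowest low-set cell but below that set's median. Otof, the calcium sensor of vesicle release at that synapse, was lower, with medians of 2570 CPM in the high set (299 to 4123) and 3287 CPM in the low set (431 to 4943), log2 ratio -0.44 and rho -0.37.

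Calb2, the calcium buffer calretinin, had medians of 3007 CPM in the high set (539 to 7138) and 5236 CPM in the low set (1245 to 9755), log2 ratio -0.74 and rho -0.38. Rprm, a gene linked to cell cycle arrest, went the other way, at 10 CPM or more in 18 of 22 high and 7 of 22 low cells, with a highest value of 2041 CPM in the high set and 514 CPM in the low set (log2 ratio 2.12, rho 0.48). Shtn1, a cytoskeletal protein of growing axons, had medians of 329 CPM (2.51 to 573) and 167 CPM (0 to 329), and rho 0.32. With the mitochondrial share held constant, rho was -0.21 for Calb2 and 0.18 for Shtn1, and with depth and genes held constant -0.298 and 0.28, so neither passed 0.3. Cabp2, Atp2a3, Fgf8, Dnajc5b and Slc7a14 had rho between -0.08 and 0.03. The sets overlapped for every one of these genes.

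Of 9 OHC genes, 5 were abundant enough to compare, with 1 at least 2-fold higher (11.3% of all genes) and 2 lower (8.55%) and a median log2 ratio of 0.24. Their median rho was 0.12, or -0.049 with the mitochondrial share held constant. Ocm, the OHC calcium buffer oncomodulin, had a median of 0.45 CPM in the high set (0 to 559), 1.25 CPM in the middle set and 199 CPM in the low set (0 to 4718). Pooled OHCs stood at 44926 CPM, and the lowest OHC at 17896 CPM, above the highest low cell. The log2 ratio was -4.12 (-4.83 without the highest cells) and rho -0.48. Aqp11, a water channel of intracellular membranes, had medians of 0.056 CPM in the high set (0 to 151) and 55.7 CPM in the low set (0 to 339), log2 ratio -1.44 and rho -0.37. That rho was -0.20 with the mitochondrial share and -0.26 with depth and genes held constant.

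Ikzf2, the transcription factor Helios that promotes the OHC programme, was in contrast higher with Tbx2. Its median was 19.6 CPM in the high set (0 to 110.1), 0 CPM in the low set (highest 12.8) and 324 CPM in OHCs, with reads in 13 high and 4 low cells. The log2 ratio was 4.86, and 5.88 without the highest cells, on 6332 high and 196 low counts; rho was 0.45, and 0.28 with the mitochondrial share held constant. Ikzf2 overlaps Gm29114 on the other strand. Sri (log2 ratio 0.24) and Strip2 (0.53) were below 2-fold. Slc26a5, Lbh, Lmod3 and Chrna10 did not reach the mean of 10 CPM. Lbh held 0 counts in the high and 1283 in the low set, Lmod3 0 and 1320, and Chrna10 434 and 4063. These low-set counts came from 3, 2 and 9 cells. Pooled Slc26a5 was 0.32, 0.55 and 0.0060 CPM in the high, middle and low sets against 2080 CPM in OHCs, so the defining OHC marker was near 0 at every Tbx2 level.

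**Figure D4:**
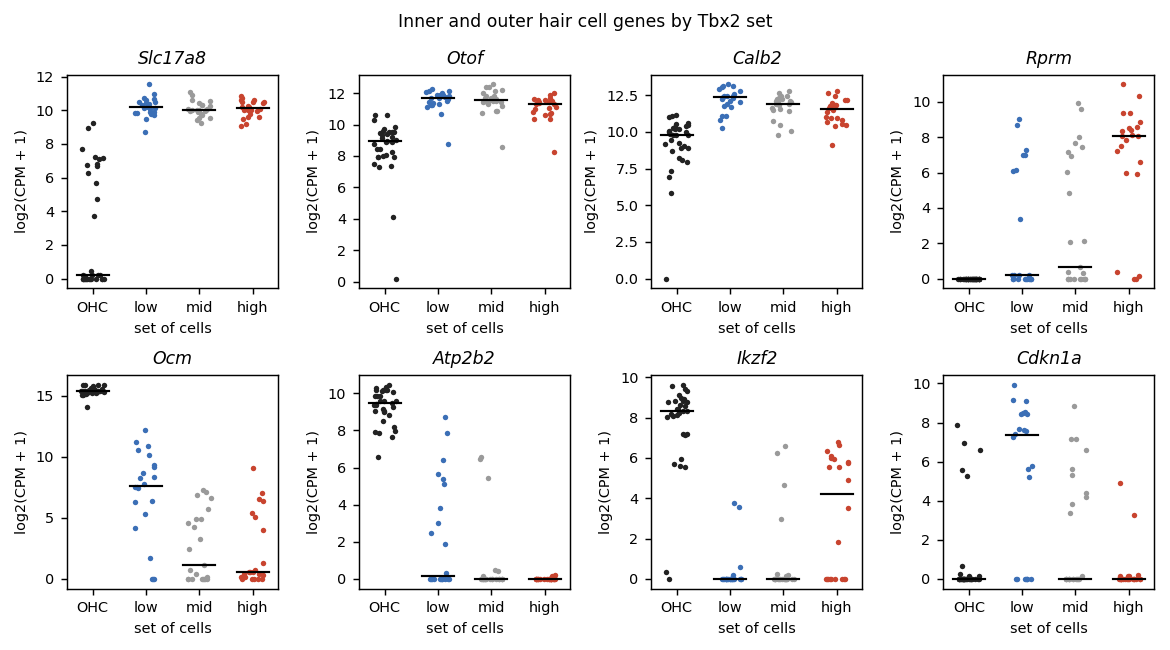
log2(CPM + 1) of 8 genes in each of 32 OHCs and of the 22 low, 23 middle and 22 high cIHCs (points), with the median of each set as a black line. Slc17a8 overlaps across the 3 cIHC sets (medians 1158 and 1114 CPM in low and high), while Ocm and Cdkn1a are highest among cIHCs in the low set and Rprm and Ikzf2 in the high set.

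Genes switched on in cIHCs relative to OHCs were present over the whole Tbx2 range, and this list was chosen on these cells, so its presence is no separate evidence. Of 8 tested, 1 was at least 2-fold higher with high Tbx2 (11.3% of all genes) and 0 were lower (8.55%). A rho of 0.3 or above was found for 3 (6.14%), and the median log2 ratio was 0.48. Slc10a7, a solute carrier family member, had medians of 598 CPM in the high set (134 to 1412) and 329 CPM in the low set (0.138 to 747), log2 ratio 0.99 and rho 0.46. Cd59a, an inhibitor of complement, had medians of 410.4 CPM (0 to 827) and 86.3 CPM (0 to 1434), log2 ratio 1.24 and rho 0.40. With the mitochondrial share held constant, these were 0.26 and 0.14. The 7 genes lost in cIHCs did not reach the mean of 10 CPM in any case.

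Of 10 general hair cell genes tested, 2 were at least 2-fold lower (8.55% of all genes) and 0 higher (11.3%). A rho of -0.3 or below was found for 4 (4.08% of all genes) and of 0.3 or above for 0 (6.14%), and the median log2 ratio was -0.47. Myo6, the motor myosin VI of the hair bundle base, had medians of 723 CPM in the high set (49.3 to 1933) and 1632 CPM in the low set (164 to 3107), log2 ratio -1.01 and rho -0.50. Lhfpl5, a subunit of the mechanotransduction channel complex, had medians of 801 CPM (52.7 to 2010) and 1503 CPM (105 to 2620), log2 ratio -0.86 and rho -0.51. Gfi1, a transcription factor of hair cell survival, had medians of 11.5 and 85.7 CPM (log2 ratio -1.63, rho -0.35), and it overlaps A430072P03Rik on the other strand. Cells of both sets shared much of each range. Cib2, a partner of the channel, was level, with medians of 4614 and 4168 CPM and rho 0.11.

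Among 11 mechanotransduction genes tested, 1 was at least 2-fold higher (11.3% of all genes) and 2 lower (8.55%), with a median log2 ratio of -0.65. Tomt, which is needed to bring the channel to the bundle, had medians of 408 CPM in the high set (65.7 to 639) and 133 CPM in the low set (23.4 to 392), log2 ratio 1.22 and rho 0.47, but rho 0.04 with the mitochondrial share held constant. Ush1c, the scaffold harmonin, had medians of 184 CPM (6.66 to 485) and 446 CPM (9.33 to 1074), log2 ratio -1.10 and rho -0.39. Cdh23, a tip link cadherin, had medians of 49.4 and 101 CPM, log2 ratio -1.36 and rho -0.28. Tomt and Ush1c overlap exons of other genes and are uncertain.

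Of 11 ribbon synapse genes tested, 0 were at least 2-fold higher (11.3% of all genes) and 0 lower (8.55%). Their median log2 ratio was -0.12. A rho of -0.3 or below was found for 2, Otof and Cacna1d (4.08% of all genes). Cacna1d, the calcium channel that triggers release, had medians of 221 CPM in the high set (4.50 to 580) and 392 CPM in the low set (121 to 1076), log2 ratio -0.86 and rho -0.31, or -0.24 with either the mitochondrial share or depth and genes held constant. Ctbp2, whose product includes the ribbon protein RIBEYE, had medians of 189 and 136 CPM and rho 0.15. Of 7 potassium channel genes tested, 1 was at least 2-fold higher (11.3% of all genes) and 1 lower (8.55%). Lrrc52, an auxiliary subunit of the large-conductance channel family, had a log2 ratio of -1.95 (rho -0.40, or -0.16 with the mitochondrial share held constant). Kcnma1, the pore subunit of the BK channel, had a log2 ratio of 0.24 (rho 0.06). The 2-fold higher member, Kcnmb2, had a median of 0 CPM in both sets.

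Calcium handling genes went in both directions: of 12 tested, 1 was at least 2-fold higher (11.3% of all genes) and 3 lower (8.55%). A rho of -0.3 or below was found for 6 (4.08% of all genes) and of 0.3 or above for 1, Calb1 (6.14%). Beside Calb2, the buffer gene Pvalb had medians of 61.05 CPM in the high set (0 to 470) and 197 CPM in the low set (43.6 to 1439), log2 ratio -1.32 and rho -0.43, or -0.29 with the mitochondrial share held constant. Calm2, which encodes calmodulin, had medians of 8185 CPM in the high set (4211 to 15351) and 11787 CPM in the low set (3901 to 22324), and rho -0.52. Calm3, which encodes the same protein, had medians of 454 and 316 CPM and rho 0.28. Calb1 was thus higher with more Tbx2, while Calb2, Pvalb and Calm2 were lower, of which Calm2 alone passed 0.3 with the mitochondrial share held constant (-0.32).

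Cabp1, a calmodulin relative that tunes calcium channels, had a median of 0 CPM in the high set (highest 31.3) and 15.6 CPM in the low set (0 to 146), with a log2 ratio of -3.05 and rho -0.51. Atp2b2, the plasma membrane calcium pump of the hair bundle, had 2 counts over the 22 high cells and 6209 over the 22 low cells. The log2 ratio of counts was -11.75, with a 95% interval of -14.80 to -9.90 that covers counting error only. The low-set counts came from few cells, 7 of 22 at 10 CPM or more and a highest value of 416 CPM, and a single cell held 48.6% of them. All 32 OHCs sat above the cIHC medians, at a median of 701 CPM.

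Hair cell transcription factors showed no common direction. Of 16 tested, 1, Ikzf2, was at least 2-fold higher (11.3% of all genes) and 2, Gfi1 and Nr2f2, lower (8.55%). The median log2 ratio was 0.09, as over all genes tested. Nr2f2, a nuclear receptor, had medians of 15.9 CPM in the high set (0 to 128) and 47.01 CPM in the low set (0 to 222), log2 ratio -1.02 and rho -0.29. Pou4f3, needed for hair cell survival, had medians of 231 and 313 CPM and rho -0.21. Of 16 other T-box factors in the table, 1 was abundant enough to compare, Mga (log2 ratio -0.50, rho -0.03).

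**Figure D5:**
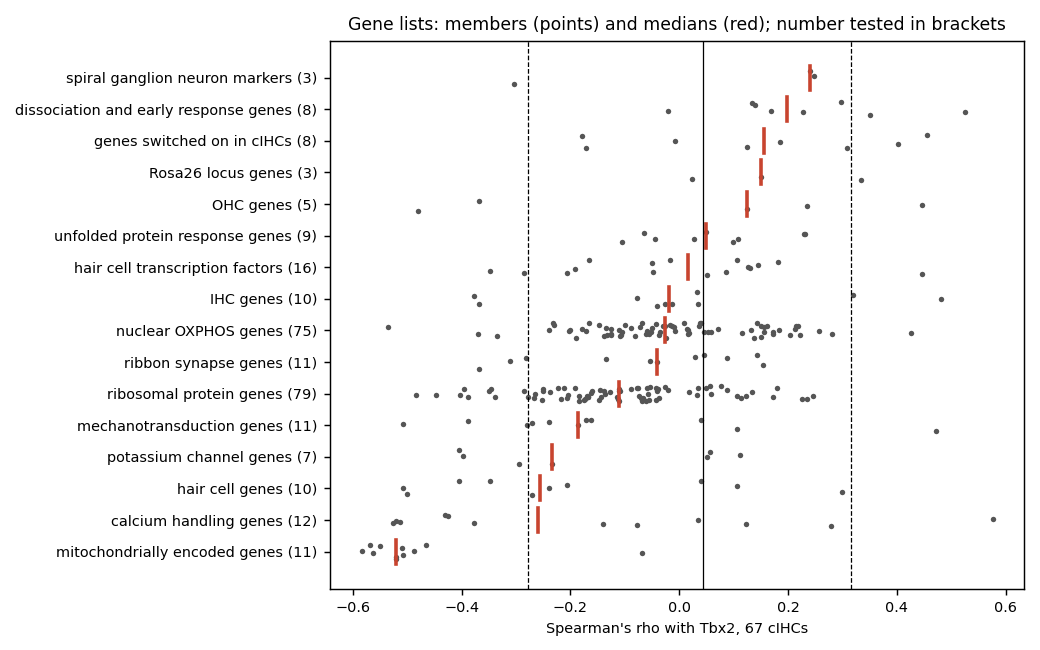
Spearman's rho with Tbx2 over 67 cIHCs for each tested member (points) of 16 gene lists, with the list's median in red and the number tested in brackets; black lines mark the 5th, 50th and 95th percentiles of all 9076 genes (-0.28, 0.04 and 0.32). Mitochondrially encoded genes have the lowest median (-0.52).

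At the Rosa26 locus, which carries the Tbx2 allele, the resident transcript Gt(ROSA)26Sor had medians of 270.1 CPM in the high set (140 to 880.3) and 213 CPM in the low set (4.00 to 976), log2 ratio 0.75 and rho 0.33. In the 12 cells with Y-linked reads rho was 0.78, and with the mitochondrial share held constant it was 0.50 over all 67. The neighbours Setd5 (rho 0.15) and Thumpd3 (rho 0.02) differed less, and Thumpd3 overlaps Gt(ROSA)26Sor on the other strand.

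Of 8 genes induced early by stress or by dissociation, 2 were at least 2-fold higher (11.3% of all genes) and 1 lower (8.55%), with a median log2 ratio of 0.75. Their median rho was 0.20, or 0.082 with the mitochondrial share held constant. Junb, an AP-1 subunit, had medians of 707 CPM in the high set (179 to 1425) and 191 CPM in the low set (0 to 895), log2 ratio 1.24 and rho 0.52, or 0.21 with the mitochondrial share held constant. Junb overlaps Prdx2 on the other strand. Fos, another AP-1 subunit, had medians of 237 CPM (0 to 1318) and 61.7 CPM (0 to 705), log2 ratio 1.38 and rho 0.297, or 0.070 with the mitochondrial share held constant. Egr1, an immediate early transcription factor, had medians of 490.3 and 162 CPM and rho 0.35, but 0.23 with the mitochondrial share held constant and -0.10 in the 12 cells with Y-linked reads. Of 9 unfolded protein response genes, 1 was 2-fold higher (11.3% of all genes) and 0 were lower (8.55%). The higher gene, Chac1, had a median of 0 CPM in both sets.

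Mitochondrially encoded genes were lower with high Tbx2 almost throughout, as the mitochondrial share above already shows. Of 11 tested, 4 were at least 2-fold lower (8.55% of all genes) and 10 had rho of -0.3 or below (4.08%). Their median log2 ratio was -0.94. mt-Co1, a cytochrome oxidase subunit, had medians of 3986 CPM in the high set (461 to 14869) and 7520.04 CPM in the low set (4923 to 17450). mt-Nd4, a complex I subunit, had the lowest rho of the list, -0.58. Of 75 nuclear genes of the respiratory complexes tested, 0 were 2-fold higher (11.3% of all genes) and 1 was lower (8.55%). The median log2 ratio was -0.05. The lower gene, Cox7a1, had 89.1% of its low-set counts in a single cell. Its log2 ratio was -2.12, or 0.68 without the highest cells. Of 79 ribosomal protein genes tested, 1 was 2-fold higher (11.3% of all genes) and 0 lower (8.55%), and the median log2 ratio was -0.15.

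Markers of supporting cells and glia were at 0 in the median cell of all 3 sets, while neuron and stria markers were present in the median cell of each. Over 10 supporting cell markers, summed pooled levels were 9.73, 9.65 and 52.9 CPM in the high, middle and low sets, with a highest low cell at 874 CPM; Epyc, Fabp7 and Prox1 were at 0 in every set. Over 5 glia markers the sums were 8.71, 6.38 and 9.65 CPM, with Pmp22 at 0 in every set. Over 8 blood and macrophage markers they were 68.3, 59.95 and 29.5 CPM, nearly all of it C1qb (67.7 and 26.8 CPM in high and low), while C1qa and Cx3cr1 were at 0. Over 6 spiral ganglion neuron markers they were 314.0, 305 and 314.0 CPM, mostly from Nefl and Nefm, with Prph and Nrn1 at 0. Equal sums held members that went apart, with log2 ratios of -0.94 for Nefl (rho -0.30, or -0.15 with the mitochondrial share held constant), 0.52 for Nefm and 3.13 for Tubb3, which had a median of 0 CPM in both sets. Over 5 stria vascularis markers the sums were 74.7, 77.1 and 75.7 CPM, nearly all of it Atp1b2 (73.1 and 74.5 CPM in high and low). The part of these transcripts in the results above was not tested.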

How the data were processed

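Single picked cells were amplified as full-length cDNA with the Smart-Seq HT kit, per the labels' protocols. The authors deposited 1 table of whole-number read counts per gene symbol and cell. HISAT2 2.2.1, StringTie 2.2.1, featureCounts 2.0.1 and mm10 are named, without role or order, in the submitters' processing notes; annotation, strand setting and filters are not given in the sources used here. Columns were matched to cells by title; 0 columns belonged to no sample. Counts were divided by column totals to CPM, and Tbx2 was left out of the results. Genes averaging 10 CPM or more were compared by log2 ratio of pooled CPM and by Spearman's rho, with no test. Named genes are the 12 highest and 12 lowest rho with reads in at least 34 cells and a log2 ratio of at least 0.5 in size with the same sign, beside members of 24 lists; some of these genes count in the totals and are not reported here. Members and lists were chosen with earlier results of these data known. Ratios and correlations were checked on simulated counts without the many cells at 0 seen here, so the check does not cover sparse genes. Cells were picked singly, so no doublet caller was run; 0 pairs were identical. TMM factors came from edgeR 4.0.16 (R 4.3.3); other steps used Python 3.11.15. Overlaps and positions are from GENCODE M21 (GRCm38, the same assembly as mm10), which holds 96.4% of the symbols. Alternatives were other set sizes, minima, thresholds and scalings, thinned cells, partial correlations and subsets of cells.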

Additional observations from a re-analysis of the deposited data

How the results depend on the processing

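No paired analysis was possible because title numbers serve to count cells, and no test was run. Against 1025 genes higher and 776 lower by fold, there were 624 and 470 with 33 cells per set, 1768 and 1217 with 11, 2782 and 2425 at a mean of at least 1 CPM, 202 and 162 at 50 CPM, and 491 and 357 at a log2 threshold of 1.5; with means of log2(CPM + 1), 1634 were higher. Against 557 positive and 370 negative rank correlations, there were 308 and 228 at 50 CPM, 148 and 150 at a threshold of 0.4, 1881 and 1489 in the 12 cells with Y-linked reads, and 218 and 236 with the mitochondrial share held constant; with depth and genes held constant, 321 were positive. Of the 557 and 370, 135 and 165 passed also with the mitochondrial share held constant. The other alternatives kept these counts within 1.5 times. The cause of these shifts was not tested, beyond fewer or more cells and genes entering.

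The median log2 ratio of early response genes was 1.13 with means of log2(CPM + 1), 1.34 with 11 cells per set, 1.28 in cells with Xist reads and 1.11 in those ranked anew, and that of neuron markers was 1.14 with means of log2(CPM + 1). That of mitochondrially encoded genes was -1.05 with 11 cells, -1.09 in cells with Xist reads and -1.10 in those ranked anew, and that of nuclear OXPHOS genes -0.39 with 11 cells. Median rho was 0.33 for OHC genes, 0.36 for Rosa26 genes and 0.35 for neuron markers in cells with Y-linked reads, and -0.32 for hair cell genes in cells with Xist reads. With the mitochondrial share held constant, the median rho of mitochondrially encoded genes was 0.03, with mt-Co1 at 0.11, mt-Co3 at 0.031, mt-Cytb at 0.32, mt-Nd1 at 0.096, mt-Nd2 at 0.064, mt-Nd4 at 0.012 and mt-Nd5 at 0.12; the share is made of these genes. In cells with Y-linked reads, rho was -0.10 for Egr1, -0.098 for Slc10a7 and -0.14 for Tpbgl, and with 11 cells the log2 ratio of Hspa1b was 0.16. The partial correlations on mitochondrial share, rho within the Y-linked cells and the ranking of Xist cells anew were chosen after seeing the data. Counts limit low genes: 14 tested genes had 3 counts or fewer in a set, and their ratios depend on that floor.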
